A study of Mus musculus with 24 samples.

Results

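The genes described are 10 parts of the machinery that takes a cell through G1 phase: the kinases Cdk4, Cdk6 and Cdk2, the D-type cyclins Ccnd1, Ccnd2 and Ccnd3, and the inhibitors Cdkn1b, Cdkn2a, Cdkn2c and Cdkn2d. They were picked by gene symbol from the 55487 genes of a count table made from mouse blood progenitors. The rule used no measured values, but it was set with earlier results of these data known. Cdkn1a and Cdkn1c, which also inhibit cyclin-dependent kinases, were outside the choice and are given with the other pathway genes.

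D-type cyclins bind CDK4 and CDK6, and the complexes phosphorylate the retinoblastoma protein, which then releases the E2F factors that switch on genes of S phase. The INK4 proteins, made by the Cdkn2 genes, bind CDK4 and CDK6 and keep the cyclins off, while p27, made by Cdkn1b, binds cyclin-CDK2 complexes and also D-type cyclin complexes. In blood progenitors this balance helps set whether a cell stays at rest or divides, and human and mouse MLL-rearranged leukaemias are known to depend on CDK6.

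The study sorted Lin-Sca1+KIT+ (LSK) cells, a mouse marrow and fetal liver fraction enriched in haematopoietic stem cells, and sequenced their RNA after 48 h of culture. ME cells came from Tet-On mice with an inducible MLL::ENL, which joins the genes Kmt2a and Mllt1 (ENL) as found in some acute leukaemias and was induced in the culture, and they were set against control cells of the same age. The groups were E16 ME and E16 control from liver, P14 ME and P14 control from bone marrow, and 8wk ME and 8wk control from bone marrow, with 4 libraries each (E16, embryonic day 16; P14, postnatal day 14; 8wk, 8 weeks). The labels give neither strain, sex nor the promoter of the transgene, and do not say whether the controls carried any part of the Tet-On system or received the inducer. They also do not say whether replicates were separate animals, so the spread behind each p-value is that of these samples alone and may be technical. Age and tissue cannot be told apart between E16 and the later ages, and in bulk RNA fewer cells of a type and less RNA per cell cannot be told apart.

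Library totals were 33.9 to 69.3 M counts (median 47.1 M). As a check of the labels, Mllt1, whose counts hold reads of the fusion and of the normal gene, averaged 53.7 and 18.4 CPM, 66.6 and 21.9 CPM, and 48.8 and 17.5 CPM in ME and control at E16, P14 and 8wk, with no overlap at any age (CPM is the count per 1000000 counts of the library, scaled by TMM). Skida1, the gene in the series title, averaged 13.5 and 0.646 CPM, 7.96 and 0.403 CPM, and 2.03 and 0.411 CPM in ME and control at these ages. Kit and Ly6a, the genes of the sorted KIT and Sca1 proteins, were detected in all 24 libraries, at no less than 375 CPM for Kit and 61.9 CPM for Ly6a, and the T cell marker Cd3e was at most 0.0802 CPM. Of the hepatocyte markers, Alb was at most 0.438 CPM and Apoa1 at most 0.553 CPM, while Afp was detected in all 24 libraries, at 5.26 to 26.8 CPM and highest in 8wk marrow. E16 ME replicate 4, 8wk ME replicate 4 and 8wk control replicate 1 stood apart on principal components and in myeloid genes: the summed level of 5 mature neutrophil markers was 41.4 CPM in E16 ME replicate 4 and 834 to 1021 CPM in the other E16 ME libraries, 37.0 CPM in 8wk ME replicate 4 and 826 to 1354 CPM in the other 8wk ME libraries, and 786 CPM in 8wk control replicate 1 and 17.1 to 30.4 CPM in the other 8wk controls. Results that these 3 libraries decide are given with and without them.

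Per kilobase of exon, Cdk4 was the most abundant of the 10 genes in every group, at mean levels of 331, 336 and 299 CPM per kb in E16, P14 and 8wk ME cells and 417, 454 and 423 CPM per kb in the controls of those ages. Ccnd2 was next in 5 of the 6 groups, with E16 ME at 44.7 ± 8.20 CPM per kb, E16 control at 58.0 ± 1.76, P14 ME at 54.0 ± 6.76, P14 control at 72.4 ± 2.94 and 8wk control at 46.0 ± 5.88 (SD, n = 4 each). In 8wk ME cells Cdkn2d, which encodes the INK4 protein p19INK4D, stood above it at 51.6 ± 11.1 CPM per kb, against 43.4 ± 2.94 for Ccnd2, but the libraries of these neighbours overlapped. The mean levels of Ccnd3, Cdk2, Cdkn2d and Cdk6 lay between 15.8 and 39.4 CPM per kb in every group, apart from Cdkn2d in 8wk ME. Ccnd1 followed at 6.43 to 8.80 CPM per kb, with Cdkn2c at 0.354 to 6.58 and Cdkn1b at 0.526 to 1.55, and Cdkn2a was last in every group. Within E16 ME cells the libraries of Ccnd2, Ccnd3, Cdk2 and Cdkn2d overlapped from each gene to the next in order. Exon lengths came from all annotated transcripts together; the order of Ccnd2, Ccnd3, Cdk2 and Cdkn2d depends on that choice. With the longest transcript of each gene, the mean of Ccnd3 was above that of Ccnd2 in E16 ME, E16 control, P14 ME and 8wk ME cells, and that of Cdk2 was above Ccnd2 in E16 ME. Cdkn2d in 8wk ME was then at 57.0 ± 12.3 CPM per kb, below Ccnd2 at 64.4 ± 4.37.

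**Figure D1:**
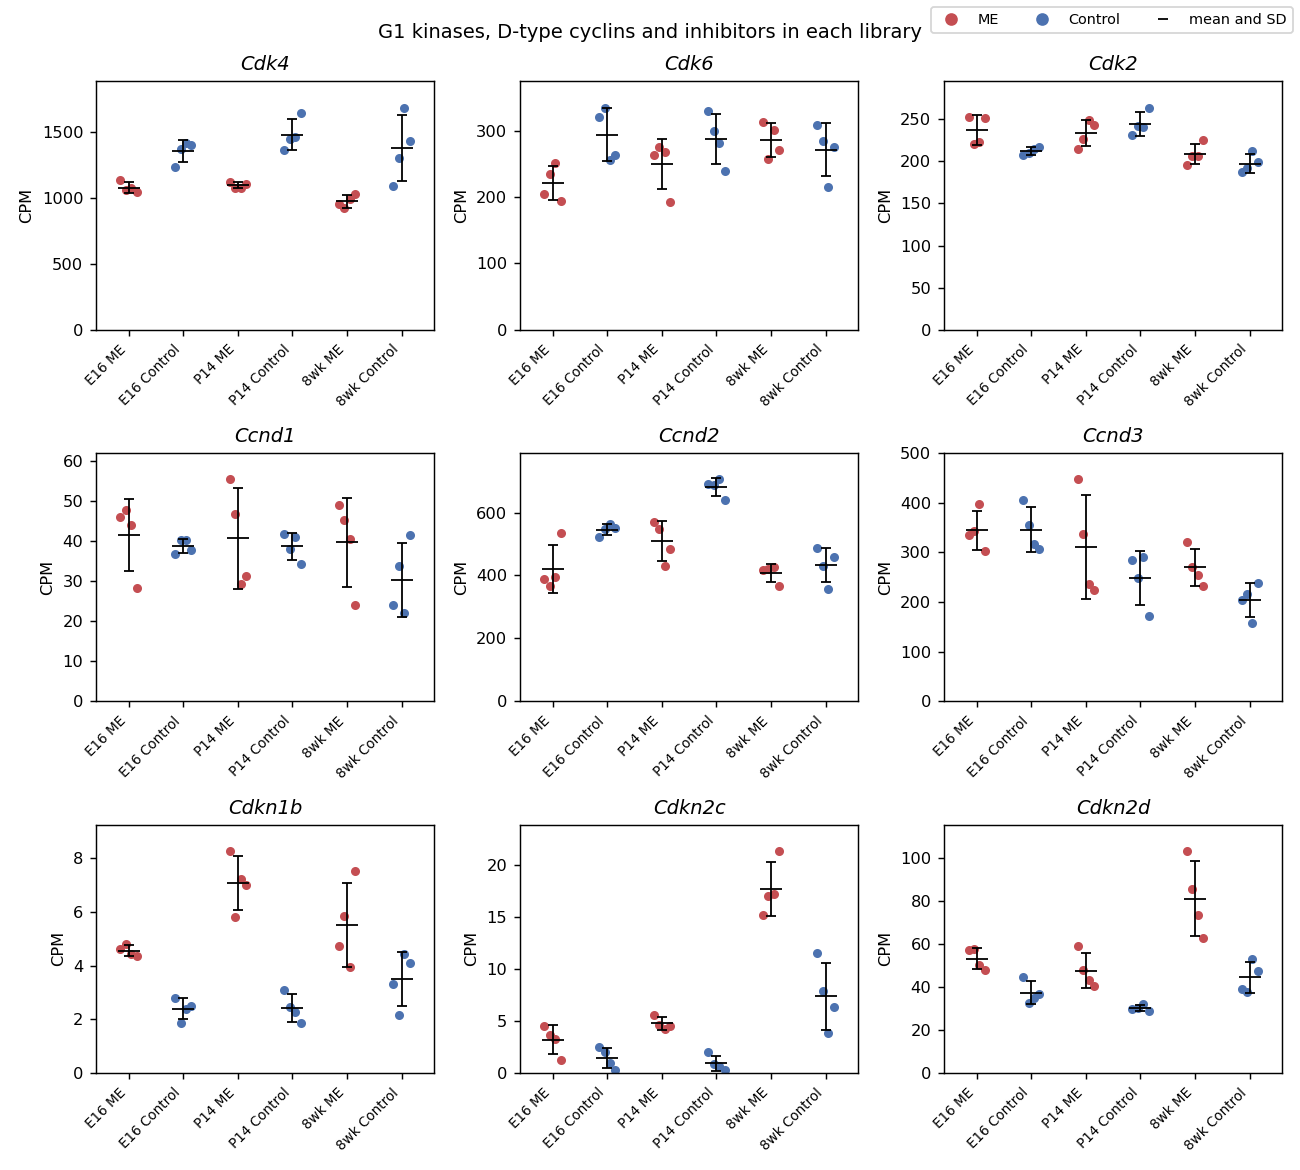
CPM (vertical axes, linear from 0) of the 9 genes that passed the expression filter in each of 24 libraries, by group, with ME in red left of control in blue at each age; black bars are the mean and SD of 4 libraries. Cdk4 lay lower in every ME library than in any control of its age, and Cdkn2d lay higher.

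The ME comparisons asked what MLL::ENL changed in progenitors of each age. In all 3 the inhibitors that were called were higher in ME cells, and the kinases that were called were lower. Of the cyclins, Ccnd2 was called lower at E16 and P14, and none was called at 8wk. At E16 edgeR called 2 members higher and 3 lower of 10, against 13.3% and 8.47% of the 18931 genes tested. At P14 it called 3 higher and 2 lower, against 12.7% and 9.35% of genes. At 8wk it called 2 higher and 1 lower, against 14.2% and 14.3% of genes, so these counts were near the shares of all genes. The test covered the 9 members that passed the filter on low counts. Their median log2 fold change was 0.10, 0.07 and 0.39 at E16, P14 and 8wk, beside 0.02, 0.03 and -0.02 over all genes tested. Of all genes called, 61.1%, 57.5% and 49.8% were higher, against 74.6%, 70.5% and 56.6% with library size only as the scaling and 36.0%, 32.1% and 33.5% after a correction for GC content, with which the median log2 fold change of all genes was -0.15, -0.16 and -0.17 at E16, P14 and 8wk. Some markers of other cell types moved with the ME label too. At E16 the summed level of 4 megakaryocyte markers was 25.4 to 55.0 CPM in ME and 162 to 426 CPM in control. That of 4 B-lineage markers was 31.8 to 68.5 and 10.4 to 15.6 CPM in the same groups, and that of 5 mature neutrophil markers 41.4 to 1021 and 1065 to 5559.6 CPM. At 8wk the B-lineage sum was 16.5 to 22.1 CPM in ME and 2.44 to 6.04 CPM in control. That of 4 mast cell and basophil markers was 24.5 to 62.0 and 124 to 147 CPM in these groups. The 8wk sums of neutrophil, megakaryocyte and erythroid markers overlapped. The sums of 6 monocyte and macrophage markers overlapped at 8wk too, at 133 to 901 CPM in ME and 144 to 612 CPM in control (medians 783 and 165 CPM). Their E16 medians were 386 CPM in ME and 402 CPM in control. The part of these cell types in the levels of the 10 genes was not tested.

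**Figure D2:**
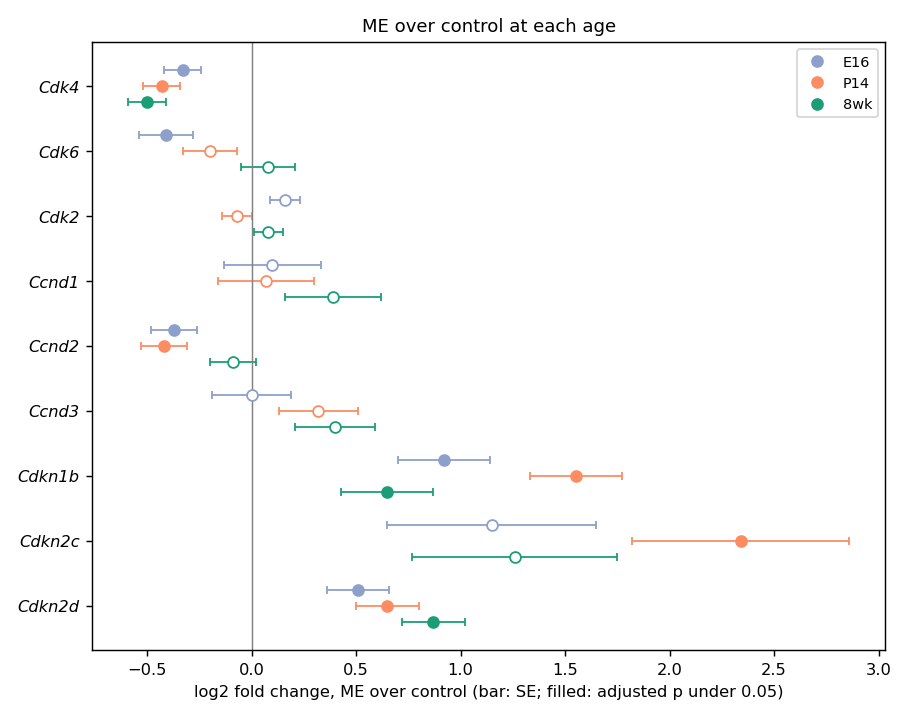
Log2 fold change of ME over control (horizontal axis) with its SE for 9 genes at E16, P14 and 8wk; filled points have an edgeR adjusted p under 0.05. Cdk4 lies left of 0 at each age, between -0.33 and -0.50, and Cdkn1b and Cdkn2d lie right of it with filled points at each age.

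Cdk4, the kinase that D-type cyclins activate together with Cdk6, was the 1 member called lower at all 3 ages. The gene (ENSMUSG00000006728) lies on GRCm38 chromosome 10, 127063534 to 127067920, plus strand. The sequence before its start is shown because it carries 4 copies of CACGTG, the E-box that MYC and MAX are known to bind, and those of Cdkn1b and Cdkn2d are shown beside it because these genes moved the other way. They come from the RefSeq promoter table (GRCm38.p6), and each is printed 5′ to 3′ on the gene's strand from 250 bases before the start and up to the first annotated exon, which leaves 52 bases for Cdkn2d, with CACGTG in capitals.
Cdk4, chr10:127063285-127063533, plus strand: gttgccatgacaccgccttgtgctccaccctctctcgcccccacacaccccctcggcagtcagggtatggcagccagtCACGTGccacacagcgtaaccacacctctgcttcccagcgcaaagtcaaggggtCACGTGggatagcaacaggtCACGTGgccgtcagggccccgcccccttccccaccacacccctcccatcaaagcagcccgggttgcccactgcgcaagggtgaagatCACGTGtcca
Cdkn1b, chr6:134920151-134920400, plus strand: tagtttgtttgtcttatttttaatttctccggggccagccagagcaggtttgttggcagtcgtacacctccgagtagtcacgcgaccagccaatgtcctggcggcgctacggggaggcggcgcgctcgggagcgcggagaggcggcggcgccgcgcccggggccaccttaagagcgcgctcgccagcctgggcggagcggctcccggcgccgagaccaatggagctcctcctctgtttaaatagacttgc
Cdkn2d, chr9:21291408-21291459, minus strand: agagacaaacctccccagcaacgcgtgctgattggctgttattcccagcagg
The Cdk4 window held 4 E-boxes, 172, 118, 98 and 11 bases before the start. At least 1 was found in 6.02% of the 32851 promoter windows of the table, and at least 4 in 7 windows (0.0213%), Cdk4 among them. Of the 8 members in the table, with 11 start sites, Cdk6 held 1 E-box and those other than Cdk4 and Cdk6 none. Ccnd1 and Ccnd2 were not in it, so their promoters were not searched. The E2F letters TTTCCCGC, TTTGGCGC, TTTCGCGC or TTTGCCGC, searched on both strands like the rest, were in 1.86% of windows, those of Cdk2 and 1 Cdkn2a start included, and the FOXO letters GTAAACA in 3.17%, 1 Ccnd3 start included. These matches describe letters only, and no binding was measured.

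Cdk4 was at 1133, 1055, 1071 and 1041 CPM in E16 ME libraries, against 1231, 1368, 1417 and 1400.1 CPM in E16 controls. It was at 1119, 1073, 1072 and 1104 CPM in P14 ME, against 1359, 1446, 1462 and 1637 CPM in P14 controls. It was at 951, 919, 991 and 1029.7 CPM in 8wk ME, against 1084, 1299, 1681 and 1431 CPM in 8wk controls. Every ME library lay below every control of its age, and the ME libraries of an age lay close together while the 8wk controls spread widely. The log2 fold change of ME over control was -0.33 ± 0.09 at E16, -0.43 ± 0.09 at P14 and -0.50 ± 0.09 at 8wk (SE; edgeR adjusted p = 0.0142, 0.00198 and 0.000569). The call held under all 18 alternatives at each age.

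Cdk6 (ENSMUSG00000040274, chromosome 5, 3341485 to 3531008), the other kinase of D-type cyclins, was at 205, 235, 251 and 194 CPM in E16 ME libraries, against 321, 335, 256 and 264 CPM in E16 controls. All E16 ME libraries lay below the controls, the highest of them close to the lowest control. Cdk6 fell, with -0.41 ± 0.13 for the log2 ratio of ME over control (SE; edgeR adjusted p = 0.0298). This call ended when the 3 libraries standing apart were left out (-0.35, adjusted p = 0.0880), without E16 ME replicate 1 or 4 or without E16 control replicate 1 or 2 (adjusted p = 0.0762, 0.102, 0.0810 and 0.104), and with library size only (adjusted p = 0.0970). At P14 Cdk6 was at 264, 275, 268 and 193 CPM in ME and 329.9, 299.6, 282 and 240.1 CPM in controls, and at 8wk at 313, 258, 302 and 271 CPM in ME and 309, 285, 215 and 276 CPM in controls. The groups overlapped at both ages, with log2 fold changes of -0.20 ± 0.13 and 0.08 ± 0.13 (SE; edgeR adjusted p = 0.296 and 0.707).

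Cdk2 (ENSMUSG00000025358, chromosome 10, 128697939 to 128705031), the partner of cyclins E and A that p27 inhibits, was not called in any ME comparison. Its log2 fold change was 0.16 ± 0.07 at E16, -0.07 ± 0.07 at P14 and 0.08 ± 0.07 at 8wk (SE; edgeR adjusted p = 0.123, 0.578 and 0.456). At E16 the ME libraries, at 221 to 253 CPM, lay above the controls at 208 to 217 CPM, and with library size only that difference was called (0.25, adjusted p = 0.0277). Cdk2 had the narrowest relative range of the 9 tested members, between 187 and 264 CPM in all 24 libraries.

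Of the D-type cyclins, Ccnd2 (ENSMUSG00000000184, chromosome 6, 127125162 to 127152193) fell in ME cells at E16 and P14. It was at 388, 365, 395 and 535 CPM in E16 ME libraries, against 523, 547, 563 and 550.1 CPM in E16 controls. It was at 570, 549, 430.3 and 484 CPM in P14 ME, against 691, 687, 705 and 641 CPM in P14 controls. At P14 the groups did not overlap, and at E16 they overlapped through ME replicate 4, which lies among the controls and is also the ME library with few neutrophil transcripts. The log2 fold change was -0.37 ± 0.11 in E16 cells and -0.42 ± 0.11 in P14 cells (SE; edgeR adjusted p = 0.0181 and 0.00818). The E16 call ended without E16 ME replicate 1, 2 or 3 (adjusted p = 0.0547, 0.0719 and 0.0506), with only the E16 libraries in the fit (0.0574) and with library size only (0.0976), while the P14 call held under all 18 alternatives. At 8wk Ccnd2 was at 416, 422, 427 and 367 CPM in ME, against 486, 429, 358 and 459 CPM in controls, a log2 fold change of -0.09 ± 0.11 (adjusted p = 0.608).

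Ccnd3 (ENSMUSG00000034165, chromosome 17, 47505051 to 47599691), the D-type cyclin that mouse T and B cell precursors need to expand, was at 303 to 398 CPM in E16 ME and 306 to 406 CPM in E16 control. It was at 447, 337, 236 and 224 CPM in P14 ME and 284, 249, 290.5 and 171 CPM in P14 control, and at 321, 271, 254 and 233 CPM in 8wk ME and 205, 216, 157 and 238 CPM in 8wk control. The groups overlapped at each age and no difference was called, with log2 fold changes of -0.00, 0.32 and 0.40 (SE 0.19 each; edgeR adjusted p = 0.991, 0.246 and 0.120). Ccnd1 (ENSMUSG00000070348, chromosome 7, 144929931 to 144939925), the cyclin D best known from solid tumours, was at 23.9 to 55.3 CPM in ME libraries and 21.9 to 41.6 CPM in controls. Its groups overlapped at each age, with log2 fold changes of 0.10, 0.07 and 0.39 (SE 0.23 each; adjusted p = 0.804, 0.863 and 0.217). The SD of Ccnd1 in ME cells was 8.96, 12.5 and 11.1 CPM at E16, P14 and 8wk, against 1.86, 3.29 and 9.13 CPM in controls. Much of the ME spread at E16 and 8wk came from replicate 4, a library that stands apart at both ages. It was at 28.2 CPM against 43.9 to 47.6 CPM in the other E16 ME libraries. At 8wk it was at 23.9 CPM against 40.4 to 48.9 CPM in the other ME libraries. The difference in spread was not tested.

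Cdkn1b (ENSMUSG00000003031, chromosome 6, 134920401 to 134925513) encodes p27, which in mouse pancreatic islets is kept on by menin and MLL. It was at 4.63, 4.81, 4.42 and 4.37 CPM in E16 ME libraries, against 2.81, 1.88, 2.40 and 2.50 CPM in E16 controls. It was at 8.25, 5.80, 7.23 and 7.00 CPM in P14 ME, against 3.11, 2.47, 2.26 and 1.86 CPM in P14 controls. The groups were apart at both ages, and the ME libraries of E16 differed little among themselves. At 8wk Cdkn1b was at 4.71, 5.83, 3.95 and 7.52 CPM in ME, against 3.30, 2.17, 4.42 and 4.08 CPM in controls, and here the groups overlapped. The log2 fold change of ME over control was 0.92 ± 0.22 at E16, 1.55 ± 0.22 at P14 and 0.65 ± 0.22 at 8wk (SE; edgeR adjusted p = 0.00464, 3.44e-05 and 0.0292). The E16 and P14 calls held under all 18 alternatives, but the 8wk call in 10 of 18. It ended when the 3 libraries standing apart were left out (0.43, adjusted p = 0.180), and without 8wk ME replicate 4 (0.46, 0.127) or 2 (0.62, 0.0680) and without 8wk control replicate 2 (0.48, 0.115) or 1 (0.62, 0.0517). These levels rest on few counts, 61 to 412 a library.

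Cdkn2d (ENSMUSG00000096472, chromosome 9, 21288410 to 21291407), the most abundant INK4 gene here, was at 57.2, 57.5, 50.2 and 47.8 CPM in E16 ME libraries, against 44.8, 32.6, 34.9 and 36.8 CPM in E16 controls. It was at 58.9, 47.8, 43.3 and 40.4 CPM in P14 ME, against 29.9, 30.3, 32.2 and 29.0 CPM in P14 controls. It was at 103, 85.4, 73.2 and 62.6 CPM in 8wk ME, against 39.2, 37.9, 53.2 and 47.6 CPM in 8wk controls. Every ME library lay above every control of its age, and the 8wk ME libraries were the highest of the study. The log2 fold change was 0.51 ± 0.15, 0.65 ± 0.15 and 0.87 ± 0.15 at E16, P14 and 8wk (SE; edgeR adjusted p = 0.0157, 0.00288 and 0.000216). With the correction for GC content the E16 and P14 calls ended (0.34 and 0.36, adjusted p = 0.0693 and 0.0575), and the E16 call also ended without E16 control replicate 2 (0.45, adjusted p = 0.0588); the 8wk call held under all 18 alternatives.

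Cdkn2c (ENSMUSG00000028551, chromosome 4, 109660876 to 109667189) encodes the INK4 protein p18, another target of menin and MLL in mouse islets. It was at 4.56, 3.71, 3.29 and 1.30 CPM in E16 ME libraries, against 2.48, 2.03, 0.937 and 0.330 CPM in E16 controls. It was at 5.61, 4.67, 4.23 and 4.56 CPM in P14 ME, against 2.00, 0.837, 0.662 and 0.304 CPM in P14 controls. It was at 15.2, 17.0, 17.2 and 21.3 CPM in 8wk ME, against 11.5, 7.86, 3.84 and 6.35 CPM in 8wk controls. The groups were apart at P14 and 8wk, and at E16 ME replicate 4 lay among the controls. The rise was called at P14, with 2.34 ± 0.52 for the log2 ratio of ME over control (SE; edgeR adjusted p = 0.00252), the largest of any member. At E16 and 8wk the log2 fold changes were 1.15 ± 0.50 and 1.26 ± 0.49 (adjusted p = 0.112 and 0.0573). The 8wk difference was called under 7 of 18 alternatives, with DESeq2 (adjusted p = 0.0238), limma-voom (0.00626) and the fit that leaves out the 3 libraries standing apart (1.45, 0.0358) among them. In the 12 control libraries Cdkn2c had between 12 and 827 counts.

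Cdkn2a (ENSMUSG00000044303, chromosome 4, 89274471 to 89294653), which encodes both p16INK4A and p19ARF from different first exons, was close to silent. It had 3 counts in E16 ME and 5 in E16 control, 1 in P14 ME and 4 in P14 control, and 1 in 8wk ME and 1 in 8wk control, summed over 4 libraries each. No library held more than 3 counts, the level that a count of 0 allows, so neither a level nor a difference was detectable at this depth. The gene was left out of the test by the filter, and counts per gene cannot separate its 2 products.

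The differences between the ME effects asked whether MLL::ENL changed a gene more at one age than at another. edgeR called 0 of the 10 members in each, against 0.0211% of genes for P14 minus E16, 0.85% for 8wk minus E16 and 0.301% for 8wk minus P14. DESeq2 and limma-voom called 0 members too, and at an unadjusted p under 0.05 there were 1, 1 and 2 members. The smallest p for P14 minus E16 was that of Cdk2 (-0.23 ± 0.10), for 8wk minus E16 that of Cdk6 (0.49 ± 0.19), and for 8wk minus P14 that of Cdkn1b (-0.89 ± 0.31), before Ccnd2 (0.34 ± 0.16; SE, unadjusted p = 0.0394, 0.0159, 0.00857 and 0.0423, edgeR adjusted p = 1, 0.215, 0.241 and 0.405). With the 3 libraries standing apart left out, Ccnd2 was called in 8wk minus E16 (0.53, adjusted p = 0.0180) and 8wk minus P14 (0.44, 0.0472), and Cdkn1b in 8wk minus P14 (-1.11, 0.0498). The rise of Cdkn2c, called at P14 and not at E16 or 8wk, differed between ages by 1.20 ± 0.71 for P14 minus E16 and -1.09 ± 0.69 for 8wk minus P14 (adjusted p = 1 and 0.572), so it was not shown to depend on age.

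Control cells of different ages showed how the same genes moved without MLL::ENL. Cdkn2c rose most: it averaged 7.40 ± 3.22 CPM in 8wk controls, against 0.950 ± 0.733 in P14 and 1.44 ± 0.984 in E16 controls (SD, n = 4 each), with all 8wk libraries above all others. Its log2 fold change was 2.98 ± 0.53 for 8wk over P14 and 2.35 ± 0.52 for 8wk over E16 (SE; edgeR adjusted p = 0.00142 and 0.00204), and both calls held under all 18 alternatives. Cdkn2d averaged 44.5 ± 7.27 CPM in 8wk controls against 30.3 ± 1.33 in P14 controls, a rise of 0.55 ± 0.15 log2 (adjusted p = 0.0183) that was not called without 8wk control replicate 3 (0.41, 0.108) or P14 control replicate 1 (0.50, 0.0539). Of the inhibitors, Cdkn1b was not called between control ages, with 0.54 ± 0.22 log2 for 8wk over E16 and 0.53 ± 0.22 for 8wk over P14 (edgeR adjusted p = 0.0818 and 0.118), but without 8wk control replicate 2 both were called (0.71 and 0.70, 0.0235 and 0.0472).

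Of the D-type cyclins, Ccnd2 was lower in 8wk controls than in controls of both younger ages, Ccnd3 was called lower against E16 controls, and Ccnd1 was not called. Ccnd2 averaged 433 ± 55.3 CPM in 8wk controls, against 681 ± 27.6 in P14 and 546 ± 16.6 in E16 controls. It fell by 0.65 log2 (SE 0.11) against P14 controls, and by 0.33 log2 (SE 0.11) against E16 controls (edgeR adjusted p = 0.000931 and 0.0318). The 8wk libraries lay below all P14 and all E16 controls, but the fall against E16 was called in 12 of 18 alternatives and ended, for instance, without 8wk control replicate 3 (-0.25, 0.125). Ccnd3 averaged 204 ± 34.1 CPM in 8wk controls, against 346 ± 45.2 in E16 controls, a log2 fold change of -0.76 ± 0.19 (adjusted p = 0.00556) called under all 18 alternatives. Cdk2 averaged 197 ± 11.2 CPM in 8wk controls, against 244 ± 13.8 in P14 controls (-0.31 ± 0.07, adjusted p = 0.00911), which was not called with only the control groups compared in the fit (adjusted p = 0.0638). Cdk4, Cdk6 and Ccnd1 were not called between any control ages, with log2 fold changes between -0.36 and 0.12.

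In counts, edgeR called 1 member higher and 2 lower for 8wk over E16, against 12.5% and 10.8% of genes, and 2 higher and 2 lower for 8wk over P14, against 7.01% and 5.58%. For P14 over E16 it called 0 members, against 15.1% of genes, with 3 at an unadjusted p under 0.05; DESeq2 called 1, Cdk2 (0.20, adjusted p = 0.0411), and limma-voom called 1, Ccnd2 (0.32, 0.0416). The summed level of 5 erythroid markers was 26.7 to 83.3 CPM in 8wk and 37.2 to 52.8 CPM in P14 controls from marrow. It was 609 to 956 CPM in E16 controls from liver, where age and tissue cannot be told apart. The globin genes Hba-a1 and Hbb-bs, at medians of 245 and 466 CPM, made up most of the E16 sum. Of the other markers, Klf1 and Gata1 overlapped between E16 and 8wk controls and Epor did not. The part of erythroid cells in the age differences was not tested. Each control group enters 2 of these 3 comparisons.

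**Figure D3:**
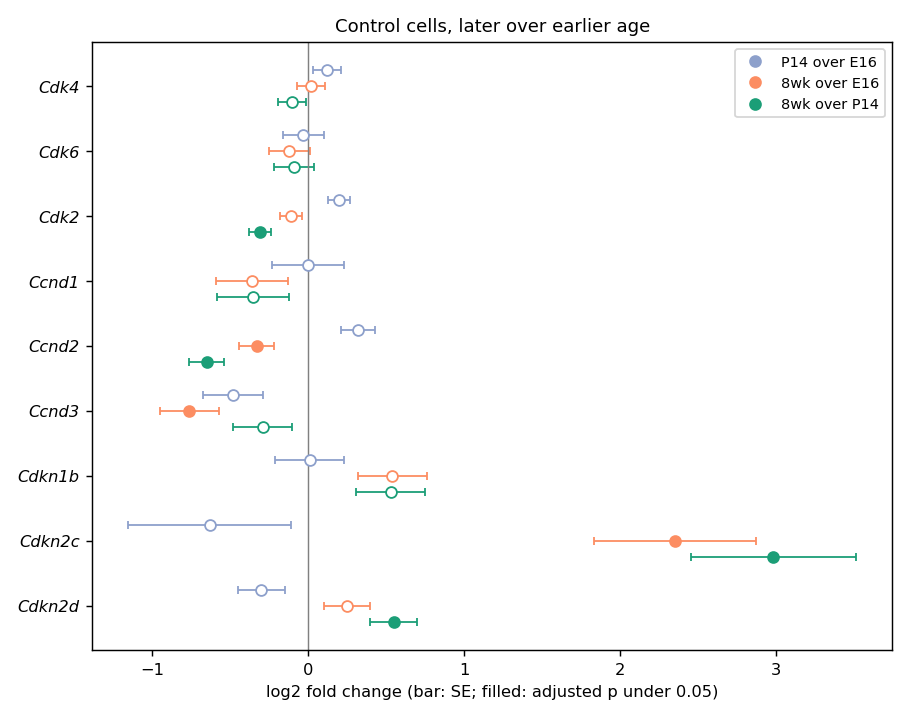
Log2 fold change between control groups, later over earlier age (horizontal axis), with its SE for 9 genes; filled points have an edgeR adjusted p under 0.05. Cdkn2c stands farthest right in 8wk over E16 and 8wk over P14, at 2.35 and 2.98, and Ccnd3 and Ccnd2 lie left of 0 in the same comparisons.

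Read together within each library, the ratio of INK4 to Cdk4 plus Cdk6 RNA was higher in ME than in control cells at all ages. INK4 RNA (Cdkn2a, Cdkn2c and Cdkn2d, in counts per kb) per 100 of Cdk4 plus Cdk6 was 9.24 to 11.1 in E16 ME libraries and 4.82 to 7.33 in E16 controls. It was 7.74 to 10.9 in P14 ME and 3.56 to 4.48 in P14 controls, and 14.2 to 22.6 in 8wk ME and 6.43 to 8.20 in 8wk controls. The means were 10.1 ± 0.857 and 5.58 ± 1.18, 9.03 ± 1.36 and 4.16 ± 0.420, and 18.3 ± 3.81 and 7.08 ± 0.797 in ME and control at the 3 ages (SD, n = 4 each). The ratio combines genes already tested above, and is a description with no test. That the groups were apart largely follows from Cdkn2d, higher, and Cdk4, lower, in every ME library than in any control of its age. Most of it is Cdkn2d, which in CPM per kb averaged 33.8 in E16 ME, 30.2 in P14 ME and 51.6 in 8wk ME.

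In the D-type cyclin RNA of ME cells the mean share of Ccnd2 was lower, and that of Ccnd3 higher, than in controls at each age; the shares were not tested. Ccnd2 made up 48.0% ± 7.00 and 55.0% ± 3.24, 55.8% ± 5.25 and 66.7% ± 3.63, and 52.7% ± 3.08 and 61.0% ± 3.24 of the 3 cyclins' counts per kb in ME and control at E16, P14 and 8wk. The libraries of ME and control were apart at P14 and 8wk and overlapped at E16 through ME replicate 4, at 58.4%. Ccnd3 made up 42.4% and 37.2%, 35.5% and 25.8%, and 37.2% and 30.6% in ME and control, and Ccnd1 at most 11.5% in any library. Cdk6 was a small share of Cdk4 plus Cdk6 throughout, at 4.57% ± 0.560 and 4.83% ± 0.839, 5.05% ± 0.790 and 4.38% ± 0.847, and 6.40% ± 0.582 and 4.56% ± 1.38 in ME and control at the 3 ages, with overlap at each age. These shares depend on the exon lengths used, which set the level but not the order of ME and control.

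**Figure D4:**
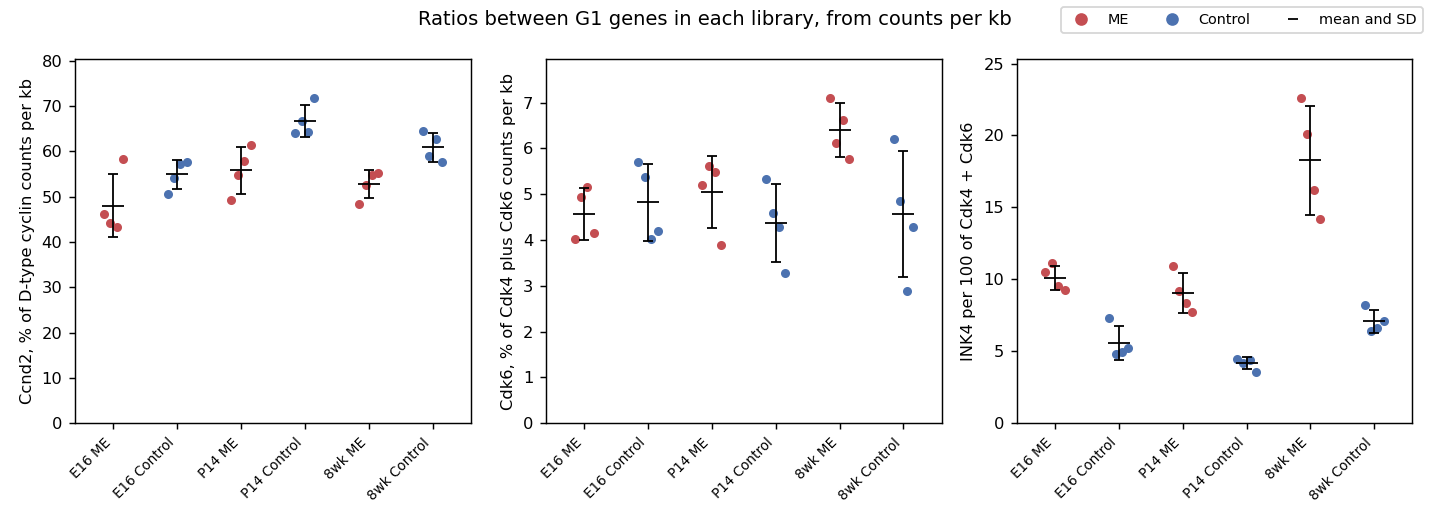
Ccnd2 as a percentage of D-type cyclin RNA, Cdk6 as a percentage of Cdk4 plus Cdk6 RNA, and INK4 RNA per 100 of Cdk4 plus Cdk6, all from counts per kb, in each of 24 libraries by group; black bars are the mean and SD. The INK4 ratio of ME libraries lies above that of all controls of the same age, at most 22.6 in 8wk ME and 8.20 in 8wk control.

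The other genes of the pathway were 39 in 6 lists, all of which passed the filter. At E16 edgeR called 11 higher and 2 lower in ME cells, at P14 11 and 2, and at 8wk 9 and 9, beside the 13.3% and 8.47%, 12.7% and 9.35%, and 14.2% and 14.3% of all genes called higher and lower. The median log2 fold change of the 39 was 0.19, 0.05 and -0.07. Cdc25a, the phosphatase that activates CDK2, averaged 78.6 ± 12.1 and 24.6 ± 7.60 CPM, 82.7 ± 5.81 and 25.2 ± 7.54 CPM, and 66.1 ± 7.80 and 21.8 ± 6.94 CPM in ME and control at E16, P14 and 8wk. It rose by 1.67 ± 0.22, 1.72 ± 0.22 and 1.60 ± 0.22 log2 (SE; edgeR adjusted p = 1.50e-05, 9.53e-06 and 2.46e-05), with no overlap at any age. Fbxw7, which marks cyclin E for destruction, rose by 1.19 ± 0.22, 1.39 ± 0.22 and 1.24 ± 0.22 log2 (adjusted p = 0.000415, 7.54e-05 and 0.000242).

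Of 10 E2F and DP genes, 6 rose at E16 with 0 lower, 6 rose and 1 fell at P14, and 3 rose and 1 fell at 8wk. Of all genes tested, 13.3%, 12.7% and 14.2% were called higher and 8.47%, 9.35% and 14.3% lower at these ages. E2f1, an activator of S phase genes, rose by 2.00, 2.53 and 2.57 log2, E2f2 by 1.23, 1.73 and 1.72, and E2f5, a repressor that works with the pocket proteins, by 2.48, 3.01 and 1.86 (edgeR adjusted p at most 0.004). The dimerization partner Tfdp2 rose by 1.07 and 0.85 at E16 and P14 (adjusted p = 0.000124 and 0.00103), with 0.24 at 8wk (0.306). Of 8 pocket protein and DREAM genes, 1 rose at each age and 1 fell at 8wk, counts near those shares of all genes. Rb1, the retinoblastoma gene, rose by 1.69 ± 0.45 in P14 cells and by 2.13 ± 0.46 in 8wk cells (SE, edgeR adjusted p = 0.00996 and 0.00167). At E16 its change was 1.05 ± 0.44 (0.0981). Its 8wk ME libraries spread widely, at 21.6 ± 14.6 CPM (SD) against 4.92 ± 1.68 CPM in 8wk controls.

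Of 4 genes of the CDK-activating kinase and chaperone list, 2 fell at E16, 0 were called at P14 and 3 fell at 8wk. Of all genes tested, 8.47%, 9.35% and 14.3% were called lower and 13.3%, 12.7% and 14.2% higher at the 3 ages. Cdc37, the chaperone that loads CDK4 onto HSP90, averaged 304 ± 29.5 CPM in E16 ME and 413 ± 30.9 in E16 control, and 278 ± 16.8 in 8wk ME and 384 ± 59.5 in 8wk control. It fell by 0.44 log2 at E16 and by 0.46 at 8wk (edgeR adjusted p = 0.00754 and 0.00428), with -0.25 at P14 (0.124). Of 7 late G1 and S genes, 1 rose at each age, near the share of all genes, and 0, 1 and 3 fell at E16, P14 and 8wk. Cks1b, a small subunit of CDK complexes that SKP2 needs to bind p27, fell by 0.58 log2 at 8wk (adjusted p = 0.0014), as did Skp2, the ubiquitin ligase subunit that removes p27, by 0.53 log2 (0.00129). Of 6 turnover genes, 2, 2 and 3 rose and 0, 0 and 1 fell, with Gsk3b, a kinase that marks cyclin D1 for export and decay, at 0.88, 1.10 and 0.87 log2 (adjusted p = 0.0209, 0.00458 and 0.0166). The Gsk3b calls at E16 and 8wk each ended without single control libraries, for example E16 control replicate 3 (0.0797) and 8wk control replicate 3 (0.0690).

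Of 4 other CDK inhibitors 1 was called higher at each age, Cdkn1c at E16 and P14 and Cdkn1a at 8wk. The shares of all genes called higher were 13.3%, 12.7% and 14.2%. Cdkn1c, which encodes p57, a relative of p27, averaged 14.0 ± 1.67 and 1.27 ± 0.782 CPM, 21.4 ± 7.71 and 5.18 ± 5.21 CPM, and 6.39 ± 0.901 and 2.35 ± 1.14 CPM in ME and control at the 3 ages (3.44 ± 0.60, 2.05 ± 0.56 and 1.44 ± 0.56 log2; edgeR adjusted p = 0.000386, 0.0115 and 0.0588). The P14 call of Cdkn1c ended with only the P14 libraries in the fit (0.0692), and its 8wk difference was called under 6 of 18 alternatives. Cdkn1a, which encodes the p53 target p21, averaged 134 ± 67.6 CPM in 8wk ME and 28.8 ± 24.3 in 8wk control, a rise of 2.21 ± 0.44 log2 (adjusted p = 0.000981), with -0.47 at E16 and -0.58 at P14 (0.462 and 0.363). With only the E16 libraries in the fit the E16 difference of Cdkn1a was called lower (-0.46, adjusted p = 0.0164). It was the 1 gene of the 39 called in a difference between ME effects, by 2.69 ± 0.60 log2 for 8wk minus E16 (adjusted p = 0.0363), a call that held in 11 of 26 alternatives with adjusted p up to 0.101. Its difference for 8wk minus P14 was 2.79 ± 0.61 log2 (adjusted p = 0.051), called under 10 of 26 alternatives. The summed neutrophil markers had medians of 1015 CPM in 8wk ME and 25.7 CPM in 8wk control, and their part in the rise of Cdkn1a was not tested.

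**Figure D5:**
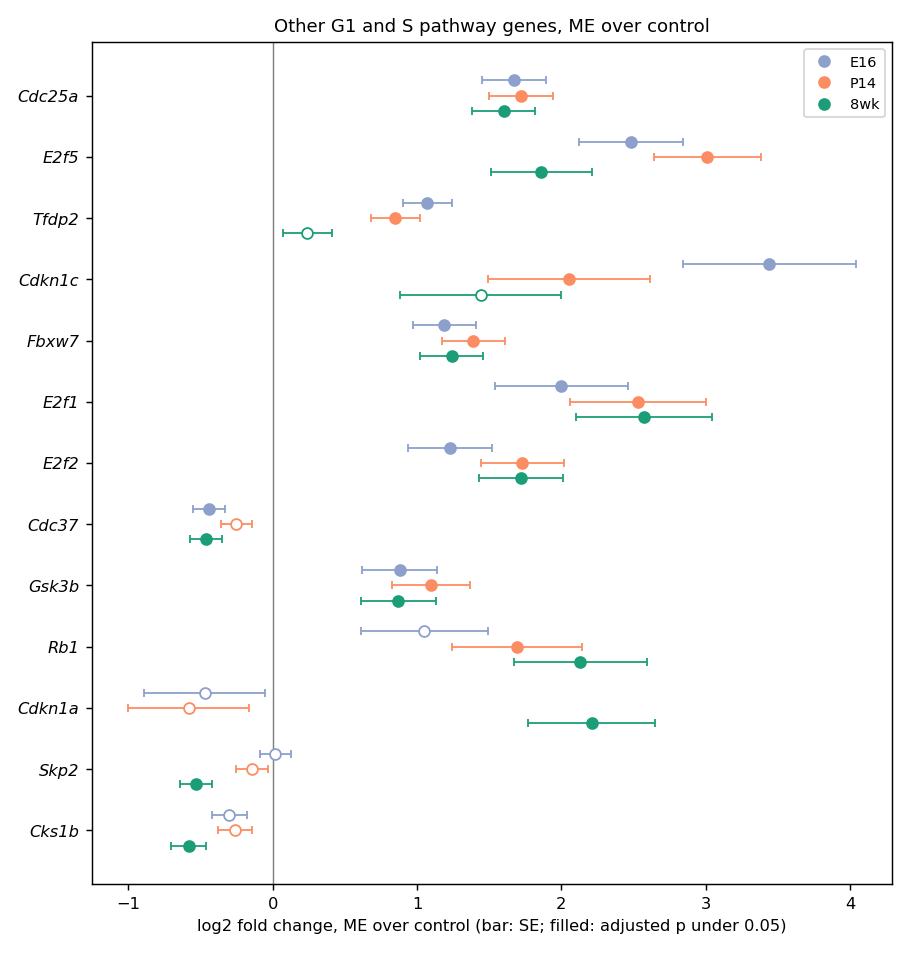
Log2 fold change of ME over control (horizontal axis) with its SE for 13 other pathway genes at E16, P14 and 8wk; filled points have an edgeR adjusted p under 0.05. Cdc25a, E2f5, Fbxw7, E2f1, E2f2 and Gsk3b lie right of 0 with filled points at every age, and Cdkn1a is filled at 8wk only, at 2.21.

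Across the 24 libraries the inhibitors varied together and against Cdk4. Pearson's r of log2(CPM + 0.5) was 0.76 for Cdkn2c with Cdkn2d, 0.65 for Cdkn1b with Cdkn2d and 0.60 for Cdkn1b with Cdkn2c, and -0.67, -0.69 and -0.72 for Cdk4 with Cdkn1b, Cdkn2c and Cdkn2d. Ccnd2 was at -0.52 to -0.70 with the same inhibitors, and Ccnd1 was at 0.71 with Ccnd3. These values describe 24 libraries that share groups, ages and depth. They include the differences between groups given above, and correlations within groups were not computed. Among 9577 protein-coding genes with a mean of at least 5 CPM, the patterns most like that of Cdk4 were those of Ddx47 (r = 0.97), an RNA helicase, and Exosc7 (0.96), a subunit of the RNA exosome. Those most like Ccnd2 were Tecr (0.92) and Lpcat3 (0.90), and like Ccnd3 Shkbp1 (0.96) and Map1s (0.94). Cdkn2c was most like Dnajc3 (0.94) and Csgalnact2 (0.93), Cdkn2d most like Gngt2 (0.92) and Tmem9b (0.91), and Cdkn1b most like Rsph9 (0.89) and Trim47 (0.88). The best matches of Cdk6 (Nomo1, 0.87, and B4galnt1, 0.78), Cdk2 (Stam, 0.87, and Alg14, 0.86) and Ccnd1 (Ube2o, 0.79, and Cdk8, 0.78) were looser.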

How the data were processed

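Per the labels, RNA for the 24 libraries came from RNeasy Plus extraction and went into a SMART-type Clontech library kit. The deposited values are raw counts per Ensembl gene; per the submitters' processing notes the authors used STAR 2.7.9a, GRCm38 and featureCounts 2.0.3 of Subread. The annotation release, the strand setting and filters are not given in the sources used here, so counts of Cdk4, Cdk6, Cdk2, Ccnd1, Ccnd2 and Ccnd3, which overlap genes on the opposite strand, are uncertain. The table had 55774 lines; 168 identifiers appeared repeatedly, each time with the same counts, and were used once. A median of 63.6% of counts from 1 to 20 were even. Counting the 2 mates of a read pair separately would leave such a pattern, but this was not tested. If it holds, counts overstate the number of independent fragments. The floor of 3 counts covers counting error only. No 2 replicates agreed within sampling noise.

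The filter filterByExpr with a minimum count of 10 left 18931 genes. A model of edgeR 4.0.16 (R 4.3.3; TMM, robust quasi-likelihood) took all 24 libraries with 1 mean per group, and a gene was called where its p, adjusted by Benjamini-Hochberg over all genes, was under 0.05 in each of 9 comparisons. Alternatives were DESeq2 1.42.0, limma-voom (limma 3.58.1), other scalings, a GC offset, other filters, fewer groups, a replicate block, each library left out and, chosen after seeing the data, the 3 libraries that stand apart left out. Same-numbered ME and control libraries deviated together at P14 (r 0.137 to 0.232 in all 4 pairs), which the labels do not explain; the block changed no member's call there. Lengths, positions and GC content are from GENCODE M21 (GRCm38). The named genes were all members, up to 8 called pathway genes with the smallest adjusted p per ME comparison, the 2 genes most correlated with each member, and Skida1 and Mllt1. The members, lists and rules were chosen with earlier results of these data known.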

Additional observations from a re-analysis of the deposited data

Results flagged for a closer look

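In 84 groups of 4 libraries (the CPM of each member and the ratios between members), the highest or lowest library was tested for its distance from the other 3. It stood apart, with a gap over the group's range above Dixon's 95% critical value, in 2 groups, and chance flags about 1 in 20. Cdk6 was at 193 CPM in P14 ME replicate 4, below the other P14 ME libraries at 264 to 275 CPM, with a gap of 0.866 of the range. INK4 RNA per 100 of Cdk4 plus Cdk6 was 7.33 in E16 control replicate 1, above the other E16 controls at 4.82 to 5.23, with a gap of 0.835 of the range. In this library the summed neutrophil markers were 5559.6 CPM and those of monocytes 1069 CPM, the highest of all 24 libraries, and their part in the ratio was not tested.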

How the results depend on the processing

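Over all comparisons the members' values kept their direction and side of the threshold in 1617 cases, passed it in 26 and missed it in 31 that were called before; sign changes where neither fit made a call are not counted as reversals, and no called member reversed. The replicate block called Cdkn2c at E16 (1.33, adjusted p = 0.0230) and 8wk (1.35, 0.0129) and ended the 8wk call of Cdkn1b (0.66, 0.0588); 3 of 12 ME libraries correlated best with the control of their own number, and the block changed no other call of a member. With the block, 2 genes were called in P14 minus E16 and 2 in 8wk minus P14.

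For genes called, only the groups compared gave 2907 in 8wk ME, 55 in 8wk minus E16, 0 in 8wk minus P14 and 1092 in control 8wk over P14. DESeq2 gave 29, 603 and 298 in the 3 differences between ME effects. Without the 3 libraries that stand apart the differences had 10, 1362 and 1009 genes and 0, 1 and 2 members, and control 8wk over P14 had 3605 genes. No filter gave 107 genes in 8wk minus E16 and 1483 in control 8wk over P14, a minimum of 1 CPM gave 250 in 8wk minus E16, and the GC offset gave 90 in 8wk minus P14. For control P14 over E16 the members called were 2 with library size only, 2 with the GC offset, 2 without the 3 libraries, and 1 each with DESeq2, limma-voom, no filter and only the groups compared. The cause was not tested.

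Leaving out each library in turn gave 3024 to 3719 genes at E16, 2875 to 4409 at P14, 3433 to 6571 at 8wk, 1 to 5 in P14 minus E16, 48 to 896 in 8wk minus E16, 4 to 369 in 8wk minus P14, and 2091 to 2593, 3333 to 4916 and 929 to 3115 in control P14 over E16, 8wk over E16 and 8wk over P14. Members called were 3 to 5 at E16, 5 at P14, 2 to 3 at 8wk, 0 in the 3 differences, and 0 to 1, 2 to 3 and 3 to 5 in the control comparisons.

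With the longest transcript as length, in the order E16 ME, E16 control, P14 ME, P14 control, 8wk ME and 8wk control, Ccnd1 was 6.67%, 5.57%, 6.25%, 5.68%, 7.20% and 6.20% of D-type cyclin RNA, Ccnd2 39.8%, 46.4%, 47.6%, 59.3%, 44.6% and 53.0%, and Ccnd3 53.5%, 48.0%, 46.1%, 35.0%, 48.2% and 40.8%. INK4 RNA per 100 of Cdk4 plus Cdk6 was 7.12, 3.95, 6.38, 2.94, 13.0 and 5.00, and Cdk6 was 3.54%, 3.74%, 3.92%, 3.39%, 4.99% and 3.54% of Cdk4 plus Cdk6. The depth limits Cdkn2a, at 15 counts in all, and the precision of Cdkn1b and Cdkn2c.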
